A study of Mus musculus with 6 samples.

Results

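Lipid droplet coats and triglyceride turnover were described from 10 genes, chosen by name for their known roles, with earlier results of these data known. The genes were the perilipins *Plin2*, *Plin3*, *Plin4* and *Plin5*, the lipolysis genes *Pnpla2*, *G0s2*, *Lipe* and *Mgll*, and the triglyceride synthesis genes *Dgat1* and *Dgat2*. All 10 had counts and were among the 14133 genes tested, of 54232 gene lines in the files. The RNA came from the heart ventricle of wild-type C57BL/6J mice on a western diet (WD), which is rich in fat and sugar. Both groups had eaten WD for 15 weeks. For the next 3 weeks, 3 mice were needle-fed Tributyrin at 5 g/kg body weight and 3 were given vehicle, which the labels name PBS, each on a cycle of 2 days on and 2 days off. Tributyrin is a glycerol backbone that carries butyrate, a short chain fatty acid made by gut bacteria. The labels give neither age nor sex, and the study used males and females. All 6 libraries held the Y-linked gene *Ddx3y* at 1802 to 2241 normalized counts and *Xist* at no more than 6.24, so all 6 read as male. The comparison asks whether heart transcripts differ with Tributyrin in obese mice with early cardiac dysfunction.

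Heart muscle takes up fatty acids and keeps part of them as triglyceride in lipid droplets, small stores whose surface is coated by perilipins. Stored triglyceride is opened in steps. ATGL, encoded by *Pnpla2*, removes the first fatty acid, hormone-sensitive lipase (*Lipe*) works on the diglyceride that remains, and monoglyceride lipase (*Mgll*) frees the last fatty acid. *G0s2* encodes an inhibitor of ATGL, and *Plin5*, the coat protein of oxidative tissues, holds droplets close to mitochondria. *Dgat1* and *Dgat2* encode unrelated enzymes that close the cycle by adding the last fatty acid to a diglyceride.

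The 6 libraries held 20369746 to 32734485 counts on genes. Mitochondrial transcripts took 23.6% to 26.5% of the counts with vehicle and 25.9% to 28.8% with Tributyrin. Genes known from atrial muscle (6 listed) summed to 4788 and 4540 normalized counts in vehicle mice 1 and 2. The sum was 1414 in vehicle mouse 3 and 815 to 1687 with Tributyrin, so vehicle mice 1 and 2 stood apart by this sum. *Nppa* went the other way, at 1046 in vehicle mouse 3 against 554 and 485 in vehicle mice 1 and 2. The other listed atrial genes were each highest in vehicle mice 1 and 2. With Tributyrin, *Myl4* and *Myl7* were highest in mouse 2, at 709 and 480. Results for the 10 genes are therefore also given without vehicle mice 1 and 2. That fit leaves vehicle mouse 3 alone in its group and holds no spread between vehicle mice. The list of 8 ventricular genes summed to 1423541 to 1461830 with vehicle and 1377957 to 1491768 with Tributyrin. The list of 8 white fat genes summed to 669 to 805 normalized counts with vehicle and 723 to 839 with Tributyrin. *Slc36a2* alone made up 584 to 770 and *Adig* 20.6 to 33.3, while *Plin1* was at 3.44 to 35.6, *Adipoq* at 0 to 14.6 and the other 4 genes at no more than 14.7. Of the 4 brown fat genes, *Ucp1* and *Elovl3* were at 0 in every library, *Cidea* at 503 to 660 and *Dio2* at 29.8 to 64.6. The 6 fibroblast genes summed to 20379 to 22746 with vehicle and 18489 to 22370 with Tributyrin. In edgeR, *Lum* had a log2 fold change of -0.31 with groups that did not overlap (unadjusted p = 0.0026, adjusted p = 0.999), *Col1a1* -0.46 (unadjusted p = 0.022, adjusted p = 0.999) and *Col3a1* -0.39 (unadjusted p = 0.059), and the other 3 were between -0.01 and 0.07. The 6 macrophage genes had values between -0.12 and -0.01, none with an unadjusted p under 0.05. The part of these cell types in the results below was not tested. Normalized counts are counts divided by a size factor per library. In these bulk samples, fewer cells of a type and less RNA per cell cannot be told apart.

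Levels of the 10 genes lay close together in the 2 groups. In normalized counts, *Mgll* and *Lipe* were higher with Tributyrin in every mouse than in any vehicle mouse, on average by 17.8% and 15.7%. This separation rests on the scaling, as counts over library size alone overlapped for both genes. Their log2 fold changes were then 0.16 and 0.14. *G0s2* differed most, at 33% above vehicle on average, but its groups overlapped. The other 7 genes differed by between -4.19% and 10.7%. By the quasi-likelihood test of edgeR, 0 of the 10 genes passed a false discovery rate (FDR) of 10%, as did 0% of all genes tested (0 of 14133). At an unadjusted p under 0.05, edgeR gave 3 of the 10 genes, all of them higher, against 4.25% of all genes tested (600), or 1.97% higher and 2.28% lower. This count of 3 did not hold in most alternatives. It was 0 with library size alone and with the mitochondrial share as a covariate, and 1 without vehicle mouse 1, vehicle mouse 2, Tributyrin mouse 1 or vehicle mice 1 and 2 and with the atrial covariate. *G0s2* had a p over 0.05 with limma-voom, with a mean CPM of at least 5, with a robust prior and with the local trend of DESeq2, where the count was 2. DESeq2 gave 11 genes past 10% and 460 at an unadjusted p under 0.05, none of the 11 being among these 10.

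Counted by direction, 8 of the 10 genes had a log2 fold change above 0, against 49.6% of all genes tested. Their median log2 fold change was 0.07, beside -0.0013 over all genes. The groups did not overlap for 2 of the 10, both higher with Tributyrin, against 8.91% of all genes in either direction with 4.26% in this direction and 4.65% in the other. The counts of 8 and of 2 depended on the scaling. With library size alone, which moved the median of all genes to -0.07, 5 of the 10 were above 0, and the groups overlapped for *Lipe* and *Mgll*. Without vehicle mice 1 and 2, 8 of the 10 were above 0, with log2 fold changes of 0.26 for *Plin2*, 0.23 for *Plin5*, 0.13 for *Plin3* and 0.06 for *Pnpla2*, and *Plin4* at -0.06 and *Dgat1* at -0.07 were below.

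**Figure D1:**
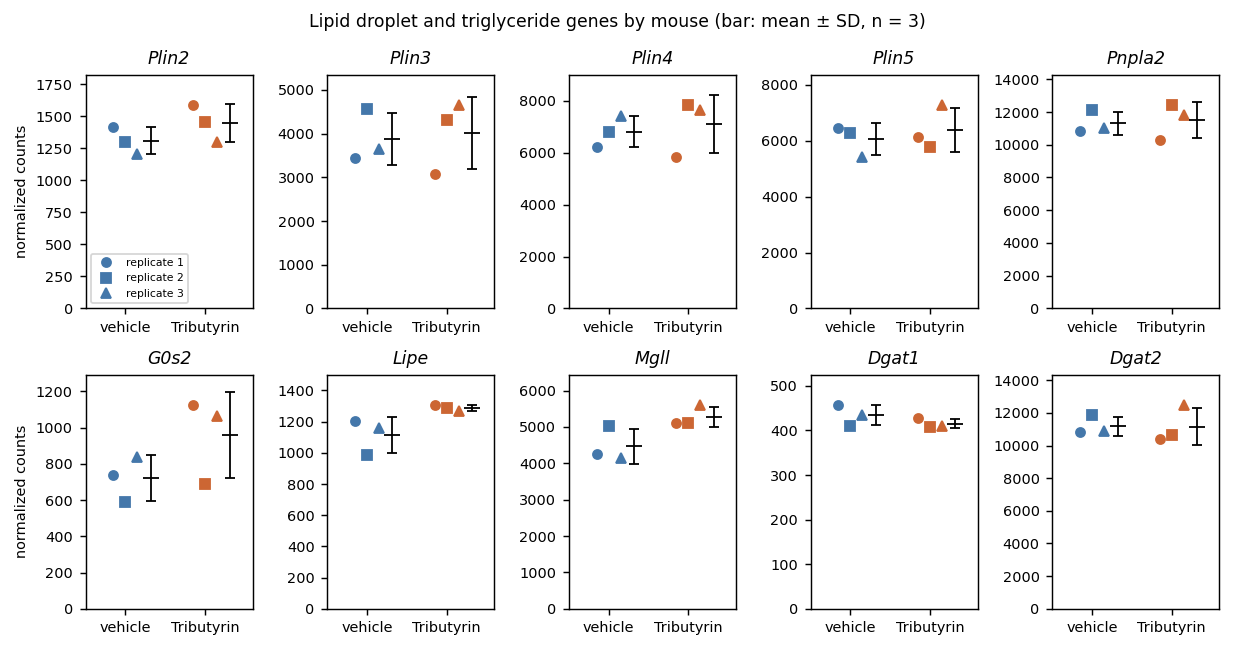
Normalized counts of the 10 genes (vertical axes, from 0) in 3 vehicle (blue) and 3 Tributyrin (orange) mice, with circles, squares and triangles for replicates 1, 2 and 3 and bars for the mean ± SD. The groups are apart for *Lipe* and *Mgll* and overlap for the other 8 genes.

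*Plin5* encodes the coat protein that ties droplets to mitochondria in heart. Its normalized counts were 6476, 6285 and 5423 with vehicle and 6134, 5771 and 7281 with Tributyrin. The highest value was in Tributyrin mouse 3 and the lowest in vehicle mouse 3, and the groups overlapped. The means were 6061 ± 561 and 6395 ± 788 (SD, n = 3 each). The log2 fold change of 0.08 ± 0.10 (SE) had a 95% interval from -0.14 to 0.30 (edgeR adjusted p = 0.999). It was -0.02 without Tributyrin mouse 3 and -0.12 with the mitochondrial share of each library as a covariate.

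*Plin2*, the coat protein that most cells make as they load lipid, was read at 1417, 1301 and 1208 normalized counts with vehicle and 1588, 1456 and 1297 with Tributyrin. Mouse 3 was the lowest and mouse 1 the highest of each group, and the ranges overlapped. This gave a log2 fold change of 0.15 ± 0.09 (SE), with a 95% interval from -0.06 to 0.35 (edgeR adjusted p = 0.999). It stayed above 0 in all 18 alternative fits, between 0.08 and 0.26.

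*Plin3*, a coat protein that moves between cytosol and young droplets, had 3436, 4563 and 3655 normalized counts with vehicle. With Tributyrin the values were 3088, 4302 and 4655, so the Tributyrin group held both the lowest and the highest mouse. The log2 fold change was 0.05 ± 0.15 (SE) and its 95% interval ran from -0.28 to 0.38. Leaving out vehicle mouse 1, Tributyrin mouse 2 or Tributyrin mouse 3 turned it to -0.03, -0.01 and -0.07.

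*Plin4*, a large perilipin with many repeats, is found in fat and muscle. Its values were 6209, 6804 and 7406 normalized counts with vehicle and 5842, 7843 and 7646 with Tributyrin. Here too the lowest and the highest mouse were both in the Tributyrin group. The log2 fold change of 0.06 ± 0.11 (SE) had a 95% interval from -0.19 to 0.32, and it was -0.01 without Tributyrin mouse 2 and -0.06 without vehicle mice 1 and 2. *Plin4*, *Plin5* and *Plin3* lie in this order on chromosome 17 (GRCm38), all on the minus strand. *Plin4* spans positions 56100591 to 56109803 and *Plin5* 56111601 to 56117596, with 1797 bases between them, while *Plin3* lies 159879 bases beyond *Plin5*, from 56277476 to 56292873. *Plin3* and *Plin4* were both at the lowest of all 6 values in Tributyrin mouse 1 and next lowest in vehicle mouse 1. *Plin5* departed from this and was lowest in vehicle mouse 3. Exons of *Plin4* share 17 bases with *Hdgfl2* on the other strand, a gene with 651 to 1122 counts.

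*Pnpla2*, the gene of the lipase that begins triglyceride breakdown, had 10820, 12098 and 11015 normalized counts with vehicle and 10288, 12425 and 11845 with Tributyrin. Mouse 2 was the highest in both groups, and the Tributyrin values reached below and above those of vehicle. The means were 11311 ± 688 and 11519 ± 1105 (SD, n = 3 each). The log2 fold change was 0.03 ± 0.09 (SE), and the 95% interval for the change was -10.7% to 16.2%. Without Tributyrin mouse 2 it was -0.03.

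*G0s2*, the inhibitor of that lipase, stood at 739, 590 and 839 normalized counts with vehicle and 1123, 687 and 1066 with Tributyrin. Tributyrin mice 1 and 3 were above every vehicle mouse, while Tributyrin mouse 2 was below 2 of the 3 vehicle mice. The means were 723 ± 125 and 959 ± 237 (SD, n = 3 each), and the log2 fold change was 0.41 ± 0.18 (SE) with a 95% interval from 0.02 to 0.81 (edgeR unadjusted p = 0.043, adjusted p = 0.999). In an edgeR fit without the filter on low counts, the adjusted p was 0.0095. The SE in that fit was 0.10, against 0.18 in the reported fit. That p-value thus allowed for less spread between mice. With the replicate number as a block, the log2 fold change was 0.39 ± 0.09 (SE, edgeR unadjusted p = 0.0018, adjusted p = 0.385). The range of adjusted p over the 18 alternatives was 0.0095 to 1.00.

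The size of the *G0s2* difference was not the same in all fits. Leaving out single mice gave log2 fold changes of 0.28 (without vehicle mouse 2) to 0.60 (without Tributyrin mouse 2). Without vehicle mice 1 and 2, the libraries with the highest atrial sums, it was 0.19, with vehicle mouse 3 alone in its group. With summed atrial transcripts as a covariate it was -0.01 ± 0.22 (SE), and with the mitochondrial share 0.02 ± 0.25. Both covariates went partly with the groups. Their part and that of Tributyrin in the *G0s2* values therefore cannot be told apart in these libraries. Summed haemoglobin and other erythroid transcripts (5 genes) were 14334, 12905 and 18285 normalized counts with vehicle and 24730, 10039 and 13233 with Tributyrin, which put the mice of each group in the same order as *G0s2*. None of the 5 erythroid genes had an unadjusted p under 0.05 between the groups, and their part in the *G0s2* values was not tested. The single *G0s2* gene lies on chromosome 1 from 193272161 to 193273217, on the minus strand, inside the span of *Lamb3* on the other strand (325 to 569 counts), with which it shares 0 exonic bases.

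*Lipe*, hormone-sensitive lipase, was read at 1202, 986 and 1158 normalized counts with vehicle and 1304, 1290 and 1266 with Tributyrin. The Tributyrin values lay within a narrow band above the highest vehicle value, and vehicle mouse 2 was the lowest. The means were 1115 ± 114 and 1287 ± 19.2 (SD, n = 3 each). Their log2 fold change was 0.21 ± 0.09 (SE), with a 95% interval from 0.02 to 0.40 (edgeR unadjusted p = 0.034, adjusted p = 0.999). Without vehicle mouse 2 it was 0.13, and over the 18 alternatives it ranged from 0.12 to 0.27 and did not pass 10% in any. It was 0.15 without vehicle mice 1 and 2, which left vehicle mouse 3 alone, and 0.12 with the mitochondrial share as a covariate. *Lipe* shares 918 exonic bases with an antisense gene, 4732471J01Rik, which had 3 to 12 counts.

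*Mgll*, monoglyceride lipase, had 4244, 5028 and 4153 normalized counts with vehicle and 5101, 5112 and 5594 with Tributyrin. The groups were apart, though vehicle mouse 2 came close to the lowest Tributyrin mouse. The means were 4475 ± 481 and 5269 ± 282 (SD, n = 3 each). Between them the log2 fold change was 0.24 ± 0.09 (SE), with a 95% interval from 0.04 to 0.43 (edgeR unadjusted p = 0.021, adjusted p = 0.999), and *Mgll* was gene 231 of 14133 in order of p. The 18 alternatives gave 0.16 to 0.34 with adjusted p from 0.437 to 1.00. Without vehicle mice 1 and 2, which left vehicle mouse 3 alone, the log2 fold change was 0.34. It was 0.34 with the atrial covariate and 0.27 with the mitochondrial share.

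The 8 ventricular genes are given here for the muscle cells beside *Mgll* and *Lipe*, and 0 of them passed an FDR of 10%. In edgeR, 4 had an unadjusted p under 0.05, against 4.25% of all genes, with log2 fold changes of 0.24 for *Pln*, 0.23 for *Tnnt2*, 0.21 for *Tnni3* and -0.21 for *Actc1*. The other 4 were at 0.07 for *Myl2*, 0.05 for *Myl3*, 0.04 for *Ryr2* and -0.08 for *Myh6*. *Pln* and *Tnni3* had groups that did not overlap, against 8.91% of all genes. The part of the muscle cell content in the values of *Mgll* and *Lipe* was not tested.

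The sequences just before the start of these lipolysis genes are shown because *Mgll*, *Lipe* and *G0s2* had the largest differences of the 10, with *Pnpla2* as the target of *G0s2*. They come from RefSeq (GRCm38.p6) and run 5′ to 3′ on the strand of the gene, as the stretch of the 250 bases before a start that lies outside exons of coding genes. Capitals mark CACGTG, the E-box letters, in *Mgll*, and GGGCGG, the GC box, in *Pnpla2*, where CCGCCC is the same motif on the other strand. The *Mgll* stretch is chr6:88724162-88724411 on the plus strand, 250 bases that are also covered by an exon of the antisense gene Gm26588 (0 to 7 counts).
Mgll: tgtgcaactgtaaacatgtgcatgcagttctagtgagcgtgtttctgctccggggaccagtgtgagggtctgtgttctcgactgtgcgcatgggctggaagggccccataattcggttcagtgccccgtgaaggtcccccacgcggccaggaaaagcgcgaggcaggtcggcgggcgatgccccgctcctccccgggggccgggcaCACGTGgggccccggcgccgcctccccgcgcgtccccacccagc
The *Lipe* stretch is chr7:25390113-25390351 on the minus strand, 239 bases before the downstream of 2 starts.
Lipe: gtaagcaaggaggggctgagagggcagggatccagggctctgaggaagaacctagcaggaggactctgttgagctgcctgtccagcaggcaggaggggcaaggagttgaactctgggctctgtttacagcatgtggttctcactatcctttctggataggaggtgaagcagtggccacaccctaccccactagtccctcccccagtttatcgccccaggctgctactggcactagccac
The *Pnpla2* stretch is chr7:141454938-141455187 on the plus strand, 250 bases with no exon in them.
Pnpla2: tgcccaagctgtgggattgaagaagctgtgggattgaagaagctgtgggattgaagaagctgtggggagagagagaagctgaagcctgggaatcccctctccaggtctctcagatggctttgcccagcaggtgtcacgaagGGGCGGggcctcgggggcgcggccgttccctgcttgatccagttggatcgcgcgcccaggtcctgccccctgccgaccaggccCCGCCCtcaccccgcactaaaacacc
The *G0s2* stretch is chr1:193273218-193273337 on the minus strand, 120 bases between the exons of *G0s2* and *Lamb3*.
G0s2: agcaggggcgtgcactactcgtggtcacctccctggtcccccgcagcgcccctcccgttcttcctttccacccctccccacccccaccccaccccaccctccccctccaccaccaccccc

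Entries in that promoter table matched 8 of the 10 genes. The 250 bases before each start were searched on both strands for 6 motifs, and genes with 2 starts had more bases to match. GGGCGG was found for 6 of the 8 genes and in 32.7% of all 32851 promoters, and CCAAT for 4 of 8 and in 33.8%. CACGTG, which reads alike on both strands, was found for 2 of 8, *Mgll* and *Lipe*, and in 6.02% of all promoters. Both of these genes have 2 starts, and each had the match before 1 of them. In *Lipe* it lay 155 bases before the upstream start, in a window that falls in an annotated exon of the gene. In *Mgll* it lay 44 bases before the upstream start. TATAA was found for 2 of 8, *Plin4* (32 bases before the start) and *Plin5* (27 bases), and in 22.8% of all. AGGTCA, letters read by nuclear receptors such as the PPARs, was found for 2 of 8, *Plin2* and *Plin5*, and in 14.0%. Its direct repeat with any 1 base between the copies was found for 0 of 8 and in 0.0335%. These are matches of letters, and no binding was measured.

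*Dgat1* encodes an acyltransferase of the endoplasmic reticulum that re-esterifies incoming fatty acids. It had 456, 411 and 435 normalized counts with vehicle and 427, 408 and 411 with Tributyrin. The values of the groups overlapped within a narrow range, and vehicle mouse 1 was the highest. *Dgat1* had a log2 fold change of -0.06 ± 0.09 (SE), with a 95% interval from -0.26 to 0.14, and it was below 0 in all 18 alternatives, from -0.13 to -0.02.

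*Dgat2*, the other acyltransferase, works at the droplet surface as well. Its values were 10848, 11851 and 10867 normalized counts with vehicle and 10383, 10632 and 12465 with Tributyrin. Tributyrin mice 1 and 2 were the lowest of the 6 and Tributyrin mouse 3 the highest. *Dgat2* had a log2 fold change of -0.00 ± 0.08 (SE), and the 95% interval for the change ran from -12.3% to 13.5%. Its sign turned in 5 of the 18 alternatives, with 0.05 without Tributyrin mouse 1, 0.04 without vehicle mouse 2, 0.03 without Tributyrin mouse 2, 0.03 without vehicle mice 1 and 2 and 0.05 with the atrial covariate.

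**Figure D2:**
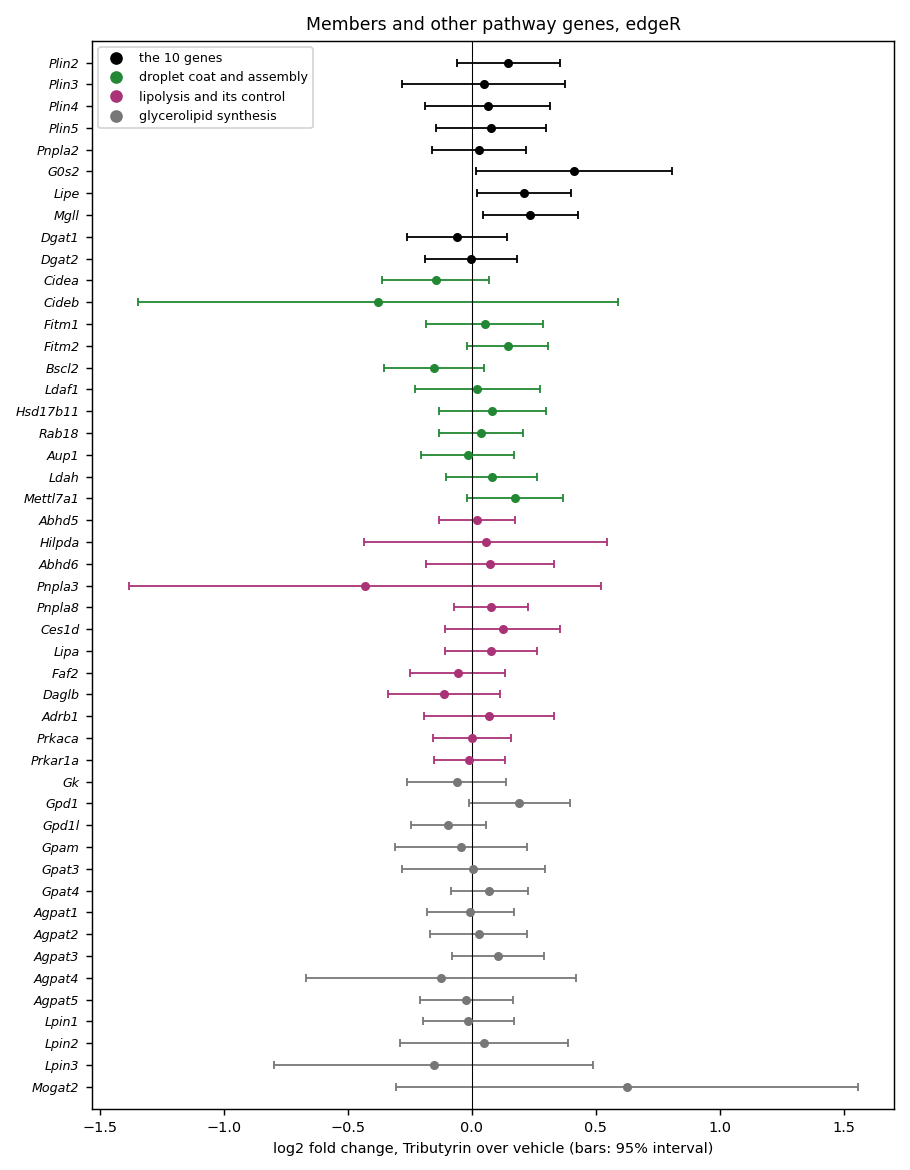
Log2 fold change of Tributyrin over vehicle (horizontal axis) with its 95% interval from edgeR for the 10 genes (black) and for the tested genes of 3 further lists of the pathway (colours). The intervals of *G0s2*, *Lipe* and *Mgll* lie above 0 and those of every other gene shown include 0.

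Levels of different genes were compared as normalized counts per kilobase of exon, averaged over the 6 mice. *Pnpla2* was highest at 3780 ± 275 (SD, n = 6), followed by *Dgat2* at 3625 ± 261 and *Plin5* at 2984 ± 306. Each was above at least 97.9% of tested genes by this level, and their ranges overlapped from each to the next. A gap of 2.48-fold separated them from a second set, *Plin4* at 1205 ± 140, *Plin3* at 1043 ± 171, *G0s2* at 965 ± 245 and *Mgll* at 960 ± 110, within which neighbours overlapped. *Plin2* at 392 ± 38.9, *Lipe* at 204 ± 20.3 and *Dgat1* at 139 ± 6.19 followed, each with 6 values apart from those of its neighbours. The span from *Pnpla2* to *Dgat1* was 27.2-fold. With the length of the longest transcript in place of all exons, 4 of the 10 genes kept their place, and *Dgat2* was then the highest at 4940 against 4349 for *Pnpla2*.

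**Figure D3:**
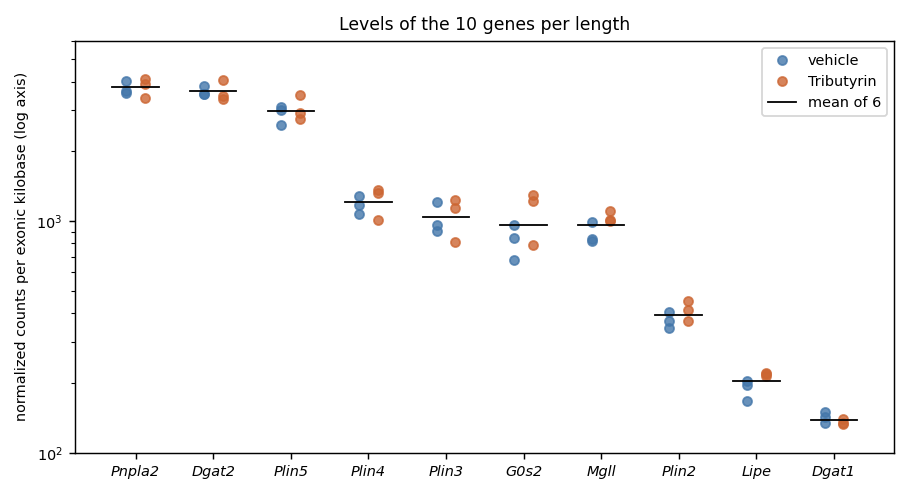
Normalized counts per exonic kilobase (vertical log axis) of the 10 genes in each vehicle (blue) and Tributyrin (orange) mouse, with a line at the mean of 6 mice. The genes are ordered from *Pnpla2* at 3780 to *Dgat1* at 139, with gaps below *Plin5*, *Mgll*, *Plin2* and *Lipe*.

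Of the summed level of the 4 perilipins per kilobase, *Plin5* made up 52.9% ± 3.3 with vehicle and 53.2% ± 3.9 with Tributyrin (SD, n = 3 each). *Plin4* made up 21.6% and 21.3%, *Plin3* 18.7% and 18.3%, and *Plin2* 6.80% and 7.25%. The *Plin5* share was 48.7% to 56.5% over the 6 mice, so it was the largest of these 4 in every mouse. The shares depended on the exon length used. With the longest transcript, *Plin2* made up 11.6% and 12.3% and *Plin5* 50.9% in both groups. *Plin1*, the coat of fat cells, was at 2.71 per kilobase and did not pass the filter on low counts.

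Ratios of these levels within a mouse were compared for 4 pairs of genes with an exact permutation test (two-sided), and its smallest possible p for groups of this size is 0.1. *Pnpla2* exceeded *G0s2* by 4.22, 5.91 and 3.79 times with vehicle and by 2.64, 5.22 and 3.21 times with Tributyrin. The ratio was lowest in Tributyrin mice 1 and 3, and the difference in its log2 value was -0.37 ± 0.35 (SE, exact permutation p = 0.4, 0.8 after Benjamini-Hochberg adjustment over the 4 pairs). It ranged from -0.16 without Tributyrin mouse 1 to -0.65 without Tributyrin mouse 2, and was -0.18 without vehicle mouse 2. In each group the mouse with the most *Pnpla2*, mouse 2, had the least *G0s2*. *Dgat2* exceeded *Dgat1* by 23.6 to 30.1 times over the 6 mice, and the log2 ratio differed by 0.06 ± 0.13 (SE, exact permutation p = 0.6, adjusted 0.8). *Pnpla2* exceeded *Lipe* by 15.4 to 23.9 times, with a log2 difference of -0.19 ± 0.16 (SE, exact permutation p = 0.5, adjusted 0.8) that was -0.05 without vehicle mouse 2 and -0.10 without Tributyrin mouse 1. *Plin5* exceeded *Plin2* by 6.50 to 9.44 times, and both ends of that range were Tributyrin mice. Its log2 difference was -0.07 ± 0.18 (SE, exact permutation p = 0.8, adjusted 0.8), and -0.24 without Tributyrin mouse 3. The size of a ratio rests on the gene lengths. With the longest transcript it was 3.67 to 5.33 for *Plin5* to *Plin2*, 3.04 to 6.80 for *Pnpla2* to *G0s2*, 11.2 to 17.4 for *Pnpla2* to *Lipe* and 19.8 to 25.3 for *Dgat2* to *Dgat1*, with the same differences between groups.

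**Figure D4:**
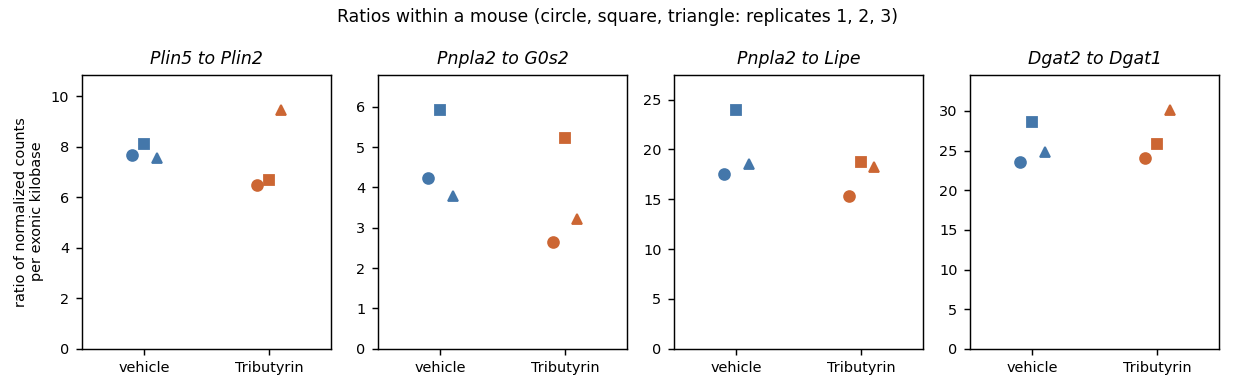
Ratio of levels per exonic kilobase (vertical axes, from 0) for 4 pairs of genes in each vehicle (blue) and Tributyrin (orange) mouse, with circles, squares and triangles for replicates 1, 2 and 3. The groups overlap in each pair, and the *Pnpla2* to *G0s2* ratio ranges from 2.64 to 5.91.

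The genes differed in how much they varied among mice of a group. The SD of log2 normalized counts within groups was 0.33 for *G0s2*, higher than in 98.2% of 2294 genes of like level, and 0.27 for *Plin3*, higher than in 96.4% of 694. It was 0.06 for *Dgat1*, higher than in 6.31% of 2312 genes of like level. The other 7 genes lay between 0.11 and 0.19, with a median of 0.15 over all genes tested. Counting error, the square root of a count, was at most 5.35% of any count of the 10 genes, the largest being for *Dgat1* with 350 to 530 counts. Tributyrin mouse 1 combined the lowest *Plin3*, *Plin4*, *Pnpla2*, *Mgll* and *Dgat2* of its group with the highest *Plin2*, *G0s2*, *Lipe* and *Dgat1*.

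The gene most like each of the 10 over the 6 mice was found by the root mean square difference of log2 normalized counts, each gene centred on its own mean. The closest pair was *Dgat2* and the tetraspanin gene *Cd151*, at 0.011, where *Cd151* had 5527, 6051 and 5526 normalized counts with vehicle and 5294, 5441 and 6236 with Tributyrin. *Pnpla2* was followed by *Shisa5* at 0.021, *Plin5* by the peroxisome biogenesis gene *Pex10* at 0.023, *Lipe* by the splicing factor gene *Srsf3* at 0.023 and *Plin2* by *Yeats2* at 0.026. *Pex10* had 538, 513 and 458 normalized counts with vehicle and 519, 482 and 591 with Tributyrin, so it was highest in Tributyrin mouse 3 and lowest in vehicle mouse 3, as *Plin5* was. The closest to *Dgat1* was *Csnk1e* (0.019), to *Mgll* *Snx24* (0.032), to *Plin4* *Sdf2l1* (0.050) and to *Plin3* *Dpysl2* (0.055). *G0s2* had the least close partner, Gm31105 at 0.093. Each was the nearest of 14133 genes over 6 points, and these libraries share their depth and composition between genes.

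The wider pathway was read from 3 further lists, of which 0 genes passed an FDR of 10% and 0 had an unadjusted p under 0.05. Over all genes tested these shares were 0% and 4.25%, and 49.6% had a log2 fold change above 0. Of 14 genes of droplet coats and assembly, 11 were tested, 7 with a log2 fold change above 0 and 4 below, with a median of 0.04. *Bscl2*, which encodes seipin of the sites where droplets form, had 430, 464 and 424 normalized counts with vehicle and 383, 401 and 401 with Tributyrin. Its groups did not overlap, with a log2 fold change of -0.15 ± 0.09 (SE, edgeR unadjusted p = 0.12). This held for 1 of the 11 tested genes, near the 8.91% of all genes tested. *Mettl7a1* was highest in this list at 0.17 and *Cideb*, at no more than 22.4 normalized counts, lowest at -0.38. *Fitm1*, an endoplasmic reticulum protein of droplet formation, had the highest level per kilobase, 2333, and a log2 fold change of 0.05.

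All 12 genes of lipolysis and its control were tested, 7 above 0 and 5 below, with a median of 0.04, and the groups overlapped for each. *Ces1d*, a carboxylesterase that acts on triglyceride, was highest at 0.12 and *Pnpla3*, at no more than 18.7 normalized counts, lowest at -0.43. *Prkaca*, the catalytic subunit of protein kinase A, which phosphorylates hormone-sensitive lipase, had the highest level per kilobase, 3553, and a log2 fold change of -0.00 (95% interval -0.16 to 0.16). *Abhd5*, the activator of ATGL, was at 0.02 (-0.13 to 0.17) and *Hilpda*, another inhibitor of it, at 0.06 (-0.44 to 0.55). These last 2 were named after their values were seen.

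Of 16 genes of glycerolipid synthesis, 15 were tested, 7 above 0 and 8 below, with a median of -0.01. *Gpd1l*, a relative of the enzyme that makes glycerol 3-phosphate, had 2162, 2278 and 2136 normalized counts with vehicle and 2117, 2049 and 1988 with Tributyrin. Its groups did not overlap, with a log2 fold change of -0.09 ± 0.07 (SE, edgeR unadjusted p = 0.19). This held for 1 of the 15 tested genes, against 8.91% of all genes tested. *Mogat2* was highest at 0.63, from 7.28 to 16.8 normalized counts, and *Lpin3* lowest at -0.15. *Agpat3*, which acylates lysophosphatidic acid, had the highest level per kilobase, 1075, and a log2 fold change of 0.10. With library size alone, 4 genes of the droplet list, 4 of the lipolysis list and 3 of the synthesis list were above 0.

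**Figure D5:**
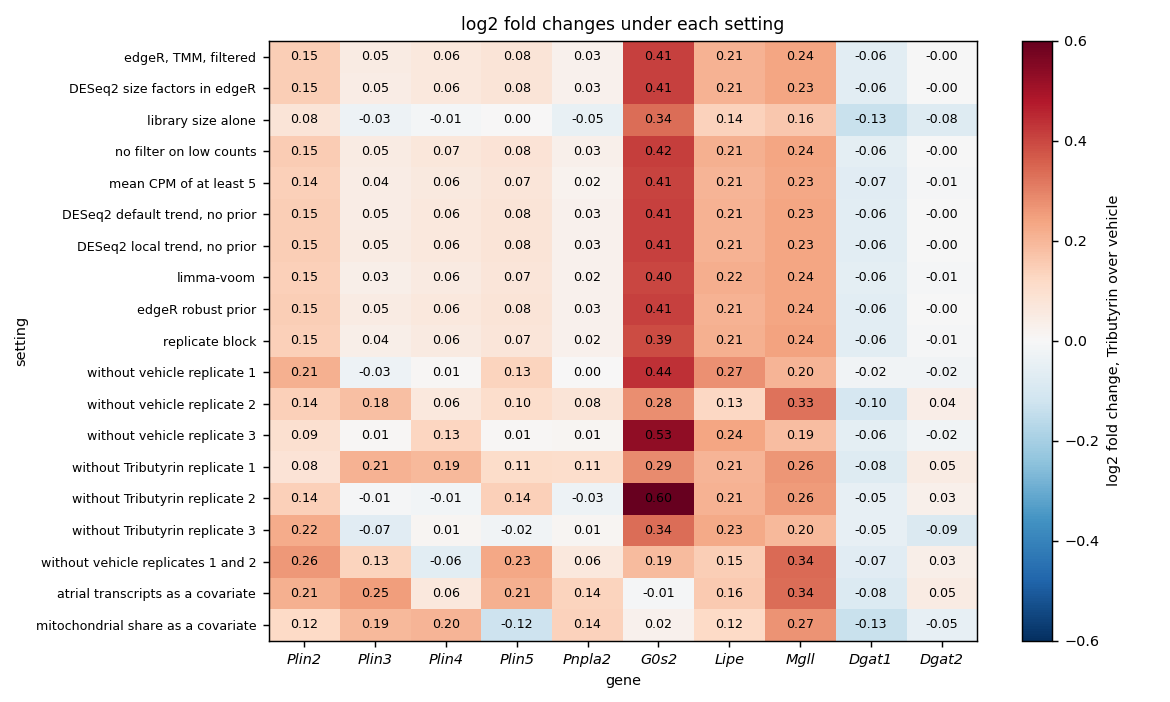
Log2 fold change of Tributyrin over vehicle (colour and printed value) for the 10 genes (columns) under the reported fit and 18 alternatives (rows). *Lipe*, *Mgll* and *Plin2* are above 0 and *Dgat1* below 0 in every row, while *G0s2* ranges from -0.01 to 0.60.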

How the data were processed

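Ventricle RNA of 3 Tributyrin and 3 vehicle mice was sequenced as 1 library each, and groups were taken from the labels. The deposited values are whole read counts per Ensembl gene, which the authors made without normalization. Per the processing notes and methods, reads were trimmed with cutadapt 1.13, cleared of rRNA, aligned to mm10 with STAR and counted with HTSeq 0.6.1p1, and the authors tested with DESeq2 1.14.1. The library kit was stranded. Which annotation release and which strand option HTSeq used is not given in the sources used here. Antisense partners are therefore named with their counts. No gene line was without a name (0 lines). Names, exon lengths and positions came from GENCODE M21 (GRCm38), in which 54165 identifiers matched.

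All genes were tested together with edgeR 4.0.16 in R 4.3.3 (quasi-likelihood, TMM scaling, filterByExpr with minimum count 10 and minimum total 15, no covariate, Benjamini-Hochberg), where the study used DESeq2, run here as DESeq2 1.42.0. SEs were computed from the F statistic, and intervals cover 95%. Normalized counts used DESeq2 size factors, with 0.5 added on the log2 scale. Ratios were tested by exact permutation in Python 3.11.15. The p-values of the reported edgeR fit set a group difference against the variation between these mice, moderated by that of all genes tested. The fits were also run on simulated counts, drawn gene by gene without the library differences described above, and that outcome is not used here. The 10 genes and all lists were chosen with earlier results of these data known. The text names the 10 genes, and of each of the 3 pathway lists the genes whose groups did not overlap, the highest and lowest log2 fold change and the highest level. Cell type markers are named beside results, and those named singly were chosen after their values were seen. Alternatives were other scalings, filters and tools (limma 3.58.1), a robust prior, a replicate block, each mouse left out, and, added after the data were seen, atrial and mitochondrial covariates and the fit without vehicle mice 1 and 2. That last fit leaves vehicle mouse 3 alone in its group. The atrial and mitochondrial covariates went partly with the groups.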

Additional observations from a re-analysis of the deposited data

How the results depend on the processing

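No gene among the 10 passed an FDR of 10% in 17 of 18 alternatives, and *Plin2*, *Lipe*, *Mgll* and *Dgat1* had the same direction in all 18. Without a filter on low counts, 167 genes passed, among them 1 of the 10 (*G0s2*, log2 fold change 0.42, edgeR adjusted p = 0.0095). The SE of *G0s2* was 0.10 in that fit, against 0.18 in the reported fit. In DESeq2, 11 genes passed, and 38 with its local trend. With 1 mouse left out of the edgeR fit, 0 to 3 passed. With library size alone, 5 of the 10 genes were above 0 and their median log2 fold change was -0.0038, with *Plin3* at -0.029, *Plin4* at -0.011 and *Pnpla2* at -0.046, and 4, 4 and 3 genes of the droplet, lipolysis and synthesis lists were above 0. With 1 mouse left out, 6 to 9 of the 10 genes were above 0, with medians of 0.012 to 0.15. The log2 fold changes then ranged from -0.068 to 0.21 for *Plin3*, from -0.015 to 0.19 for *Plin4*, from -0.021 to 0.14 for *Plin5*, from -0.033 to 0.11 for *Pnpla2* and from -0.085 to 0.052 for *Dgat2*. The log2 ratio difference ranged from -0.24 to 0.027 for *Plin5* to *Plin2*, from -0.65 to -0.16 for *Pnpla2* to *G0s2*, from -0.28 to -0.053 for *Pnpla2* to *Lipe* and from -0.034 to 0.14 for *Dgat2* to *Dgat1*. The added settings turned *G0s2* to -0.0060 and *Dgat2* to 0.048 (atrial covariate), *Plin5* to -0.12 (mitochondrial share), and *Plin4* to -0.062 and *Dgat2* to 0.035 (without vehicle mice 1 and 2). With the longest transcript as length, 4 genes kept their place in the order of levels. The cause of these changes was not tested.

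The replicate number as a block gave 2 genes past 10%, none among the 10. In that edgeR fit the same 3 of the 10 genes had an unadjusted p under 0.05, with *G0s2* at 0.0018. The deviations of same-numbered mice correlated at 0.20, 0.03 and 0.02, and 4 of 6 mice correlated best with their own number in the other group. These values do not settle whether the numbers pair the mice. The sample titles name no pairing, and the reported fit did not pair the mice by number. The SE of the log2 fold change was 0.08 to 0.18 for the 10 genes, which limits the size of difference that 3 mice a group could show.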
